A study of Mus musculus with 12 samples.

Results

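Lungs of mice given intravenous polymer nanoparticles were compared with lungs of mice given the vehicle alone, both 21 days after bleomycin. The members are the 8 day 21 libraries of a series of 12, 4 labelled as nanoparticle-treated and 4 as vehicle-treated, each from the whole lung of 1 mouse. The other 4 libraries, from lungs taken at day 14 before any injection, serve here as a reference level and add to the estimate of the spread. All mice were wild-type (WT) C57BL/6J males aged 10 weeks, and every mouse, vehicle and day 14 mice included, had been given oropharyngeal bleomycin (0.0125 U each, or roughly 0.5 U/kg). The nanoparticles had a poly(lactide-co-glycolide) core, abbreviated PLG, and were stabilised with poly(ethylene-alt-maleic anhydride), abbreviated PEMA. Their mean diameter was 609.22 ± 15.30 nm and their surface charge −45.61 ± 5.48 mV over 5 batches. Doses of 2 mg were injected behind the eye each day from day 14 to day 18, 5 in all, and the vehicle was phosphate-buffered saline, which the vehicle group's own label calls intravenous saline. Lungs were therefore sampled 3 days after the last dose. The labels do not say whether blood was flushed from the lungs, and uninjured lungs are not analysed here.

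Bleomycin injures the alveolar lining, and repair brings in monocytes that become macrophages while fibroblasts lay down collagen. Circulating monocytes of the mouse are of a classical, Ly6C-high kind that enters injured tissue and a non-classical, patrolling kind that crawls along the inside of small vessels. Carboxylated polymer particles injected into blood are taken up by phagocytes, monocytes among them. The comparison of both day 21 groups asks whether the lung's messenger RNA differed a few days after such particles had been given.

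No gene passed the test for a difference between nanoparticle and vehicle lungs. Of 17909 genes with enough counts, 0 (0%) had an adjusted p under 0.05 in edgeR's quasi-likelihood test with Benjamini-Hochberg adjustment, and the smallest adjusted p was 0.451. An unadjusted p under 0.05 was reached by 431 genes with a higher mean in nanoparticle lungs (2.41% of genes tested) and by 331 with a lower mean (1.85%). The 4 nanoparticle libraries lay wholly above the 4 vehicle libraries for 322 genes (1.8%) and wholly below them for 313 (1.75%). DESeq2, run as an alternative on the same counts, called 17 genes higher and 2 lower, and every other setting that was run called 0. Against day 14, the same fit called 1845 genes in vehicle lungs (10.3%) and 2636 genes in nanoparticle lungs (14.7%). Both of these contrasts use the same day 14 libraries, so they are not independent of each other.

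The precision of the comparison sets what a count of 0 allows. The median standard error of a log2 fold change was 0.088 over the 14247 genes with an average log2 CPM (counts scaled to library size) of at least 1. For 14011 of these genes (98.3%) the 95% confidence interval lay within a 2-fold difference in either direction, and for 13020 (91.4%) within a 1.5-fold difference. Total counts ran from 24138582 to 28910459 in nanoparticle libraries and from 28001006 to 36208498 in vehicle libraries, so depth moved with the group. Thinning all libraries to the lowest total also called 0 genes. Since the full libraries had already called 0, that count cannot show the part of depth in the results below. The label of lung was matched by its defining genes: the surfactant gene Sftpc read 12218 to 14748 CPM and the alveolar type 1 gene Ager 1544 to 1749 CPM over the 8 libraries. Nanoparticle replicate 3 stood apart. Of the 14247 genes, 56 were over 2-fold above the other 7 libraries in it and 27 over 2-fold below, against 13 above in nanoparticle replicate 1, 6 in replicate 2, and 0 in nanoparticle replicate 4 and in each vehicle library. The first principal component of the 8 libraries, with 26.6% of their variance, put this library at 48.9 and the others between −15.1 and −1.48. For several of the results that rest on it, values without it are also given.

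**Figure D1:**
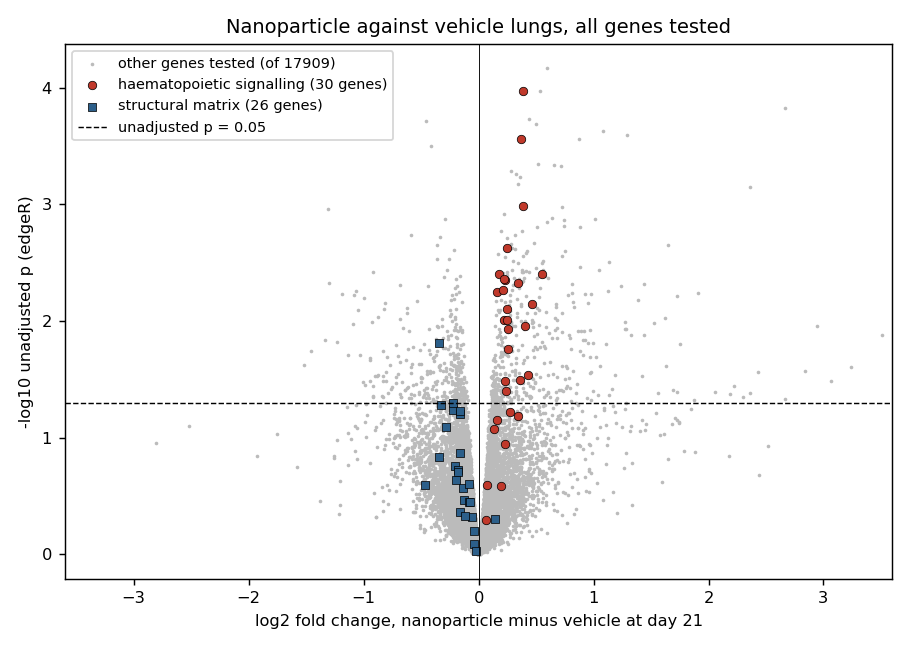
Each dot is a gene of the 17909 tested, with the log2 fold change between nanoparticle and vehicle lungs (4 each) on the x axis and −log10 of the unadjusted edgeR p on the y axis. Circles mark 30 genes of haematopoietic signalling, all to the right of 0, and squares mark 26 structural matrix genes, 25 of them to the left. Both lists were chosen with earlier results of these data known. In the plot 1 gene lies outside the x axis, and no gene passed the adjusted threshold.

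The 10 genes of smallest p with a higher mean in nanoparticle lungs, among genes with an average log2 CPM of at least 1, were led by genes of blood-derived cells. Samsn1, an adaptor protein of haematopoietic cells, read 13.9, 18.7, 16.5 and 13.8 CPM in the 4 nanoparticle lungs and 10.3, 10.7, 10.9 and 9.82 CPM in the 4 vehicle lungs. The groups did not overlap, and every nanoparticle lung exceeded the highest vehicle lung; the log2 fold change was 0.59 (SE 0.11, unadjusted p 6.83e-05, edgeR adjusted p 0.451). Was, the actin regulator lost in Wiskott-Aldrich syndrome, read 17.4, 19.3, 20.1 and 16.9 CPM against 13.5, 13.5, 14.98 and 14.2 CPM, again without overlap, a log2 fold change of 0.39 (SE 0.07). Itgal, the alpha chain of the leukocyte integrin LFA-1, read 98.8, 116, 132 and 92.8 CPM against 79.4, 65.4, 81.8 and 77.1 CPM, a log2 fold change of 0.53 (SE 0.10). Ptprc, which encodes the pan-leukocyte phosphatase CD45, read 262, 307, 302 and 268 CPM against 238, 217, 225 and 201 CPM, a log2 fold change of 0.37 (SE 0.08). In each of these genes the lowest nanoparticle lung lay above the highest vehicle lung, but the adjusted p was 0.451 for all 4. In GRCm38 with GENCODE M21 gene models, Samsn1 (ENSMUSG00000022876) lies at 75858793 to 76022281 on chromosome 16, Was (ENSMUSG00000031165) at 8081453 to 8090498 on chromosome X, Itgal (ENSMUSG00000030830) at 127296260 to 127335138 on chromosome 7 and Ptprc (ENSMUSG00000026395) at 138062861 to 138175708 on chromosome 1. All 4 are annotated as protein-coding genes.

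The other 6 of the 10 were Ms4a6c, Fyb, Treml4, Cd300e, S1pr5 and Mmp12. Treml4, a receptor of non-classical monocytes, read 9.50, 14.3, 13.3 and 10.0 CPM in nanoparticle lungs and 6.59, 4.58, 5.83 and 5.23 CPM in vehicle lungs, a log2 fold change of 1.08 (95% interval 0.61 to 1.55). Cd300e, an activating receptor of the same cells, read 5.82, 9.97, 12.7 and 7.97 CPM against 4.76, 2.11, 3.99 and 4.01 CPM, 1.29 on the log2 scale (0.73 to 1.85). S1pr5, a receptor for sphingosine 1-phosphate found on patrolling monocytes and natural killer cells, read 7.26, 8.64, 8.28 and 7.28 CPM against 5.11, 3.10, 5.00 and 3.92 CPM, 0.88 on the log2 scale (0.49 to 1.27). In all 3 genes the mean was highest in nanoparticle lungs, intermediate in vehicle lungs and lowest at day 14 (4.40, 2.13 and 2.78 CPM). Mmp12, the elastase of macrophages, read 137, 125, 121 and 111 CPM against 56.6, 76.3, 93.0 and 87.7 CPM, 0.65 on the log2 scale (0.35 to 0.96). Its day 14 mean was 110.5 ± 15.3 CPM (SD, n = 4), between the nanoparticle mean of 124 ± 10.7 CPM and the vehicle mean of 78.4 ± 16.1 CPM. The adapter gene Fyb (0.50) and the membrane protein gene Ms4a6c (0.44) also had groups that did not overlap. With each of the 12 libraries left out in turn, day 14 included, the log2 fold change of Treml4 was 0.98 to 1.17. That of Cd300e was 1.09 to 1.45 and that of Samsn1 0.50 to 0.65.

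**Figure D2:**
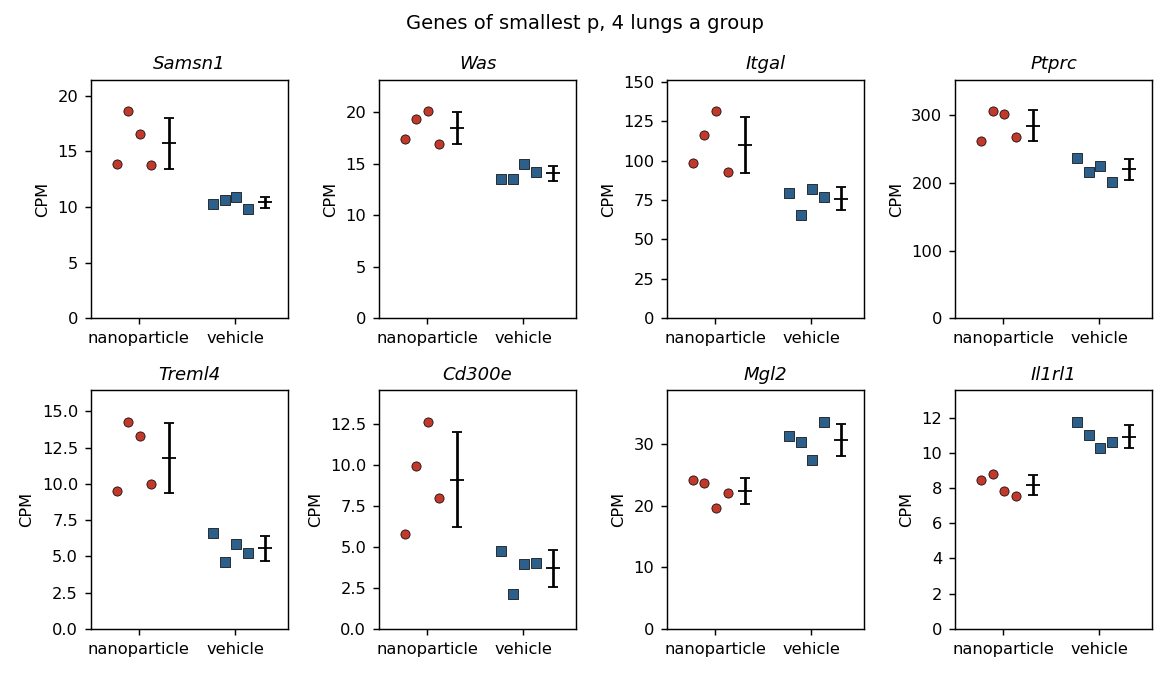
CPM (y axis, from 0) in each lung for 6 genes with a higher and 2 with a lower mean in nanoparticle lungs, with circles for nanoparticle and squares for vehicle libraries and the bar giving mean ± SD of 4. The groups do not overlap in any of the 8 genes; Cd300e read 5.82 to 12.7 CPM in nanoparticle lungs.

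The list of non-classical monocyte genes had 16 members tested. Of these 15 had a higher mean in nanoparticle lungs, 7 reached an unadjusted p under 0.05 (all 7 higher, beside 2.41% of all genes) and 5 had groups that did not overlap (beside 1.8%). The list's median log2 fold change was 0.43, beside 0.002 over all genes tested. Besides Itgal and Treml4, the 5 were Adgre4, an adhesion receptor of macrophages and monocytes, at 20.0, 32.2, 24.0 and 18.2 CPM against 14.8, 10.5, 13.3 and 12.6 CPM, together with Spn (CD43) and Cd300ld. Spn, the sialomucin CD43, read 40.7, 60.2, 48.8 and 45.4 CPM against 38.6, 28.5, 36.6 and 33.7 CPM. Cd300ld, a myeloid receptor, read 17.2, 18.8, 34.9 and 14.53 CPM against 12.4, 12.4, 13.8 and 14.47 CPM, with nanoparticle replicate 3 far above the rest and the groups barely apart (0.68, or 0.34 without that library). The chemokine receptor Cx3cr1, a defining gene of these cells, overlapped between groups (50.1, 59.5, 58.1 and 36.1 CPM against 35.7, 46.5, 38.0 and 47.4 CPM; log2 fold change 0.28, SE 0.21). So did Nr4a1, the nuclear receptor on which these monocytes depend, at 94.8, 58.6, 39.9 and 32.0 CPM against 72.1, 21.3, 24.9 and 25.8 CPM. Nr4a1 is also an immediate early gene, and vehicle replicate 1 alone reached the range of the higher nanoparticle lungs. Without nanoparticle replicate 3 the list's median was 0.32, with 7 members at an unadjusted p under 0.05 and 6 without overlap. In that setting 2.42% of all genes reached that p as higher and 1.67% as lower. Groups with a library removed part more easily, so the 6 cannot be set beside 1.8%. The list's members are not confined to these monocytes: Cd36, its most abundant member, was also listed among scavenger receptor and lipid genes. The counts therefore do not say which cells carried the difference. In whole lung, more cells of a type and more RNA per cell cannot be told apart, here or in the gene groups that follow.

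Classical monocyte genes gave a mixed picture. Of 16 tested, 10 had a higher and 6 a lower mean in nanoparticle lungs, 7 reached an unadjusted p under 0.05 (all higher, beside 2.41% of all genes), 5 had no overlap (beside 1.8%) and the median was 0.33, or 0.17 without nanoparticle replicate 3. Ly6c2, the antigen that marks classical monocytes, read 29.4, 21.7, 24.8 and 17.2 CPM against 15.7, 14.6, 16.2 and 13.2 CPM, with no overlap (0.64, SE 0.16, edgeR adjusted p 0.867). Ly6c2 has a near-identical neighbour in its gene family, so its level is uncertain. F10, coagulation factor X, which monocytes also make, read 10.4, 9.68, 20.4 and 9.57 CPM against 6.63, 7.71, 8.39 and 8.85 CPM (0.66, or 0.32 without nanoparticle replicate 3). Ccr2, the receptor that brings these monocytes into tissue, overlapped throughout (104, 125, 101 and 116 CPM against 91.3, 109, 123 and 105 CPM), with a log2 fold change of 0.06 and a 95% interval of −0.22 to 0.34.

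Signalling genes of blood cells had higher means in nanoparticle lungs. All 30 members of the haematopoietic signalling list had a higher mean in nanoparticle lungs, 22 reached an unadjusted p under 0.05 (beside 2.41% of all genes) and 12 had groups that did not overlap (beside 1.8%). The list was chosen with earlier results of these data known, so these counts describe it and are not independent evidence. The median log2 fold change was 0.25 and the largest 0.55. None was called by edgeR; DESeq2 called 2, Was and Ptprc. Fgr, a Src-family kinase of myeloid cells, read 38.8, 45.7, 63.4 and 35.0 CPM against 27.9, 30.8, 32.5 and 33.3 CPM, 0.55 on the log2 scale and 0.35 without nanoparticle replicate 3. Lcp2, the adaptor SLP-76, read 24.4, 29.2, 30.6 and 22.1 CPM against 20.0, 21.1, 19.6 and 20.6 CPM, a log2 fold change of 0.39. Btk, the kinase of B and myeloid cells, read 20.1, 21.0, 18.2 and 18.3 CPM against 16.2, 16.5, 16.9 and 16.4 CPM, a smaller step of 0.23. Syk, the kinase downstream of Fc receptors, just overlapped, its lowest nanoparticle lung at 96.4 CPM and its highest vehicle lung at 97.4 CPM. Lyn, a kinase of the same family as Fgr, differed by 0.16 without overlap (141 to 151 CPM against 125 to 132 CPM). In these 5 genes nanoparticle replicate 4 was the lowest or next to the lowest nanoparticle lung. Without nanoparticle replicate 3, 28 of the 30 had a higher mean, 12 had no overlap and the median was 0.21. In that setting 19 reached an unadjusted p under 0.05, beside 2.42% of all genes as higher and 1.67% as lower. Without nanoparticle replicate 4, the nanoparticle lung of lowest list score (−0.081), the count without overlap was 24 and the median 0.32. Groups with a library removed part more easily, so the 12 and 24 of these settings cannot be set beside 1.8%. No count here says which blood cells carried the difference.

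**Figure D3:**
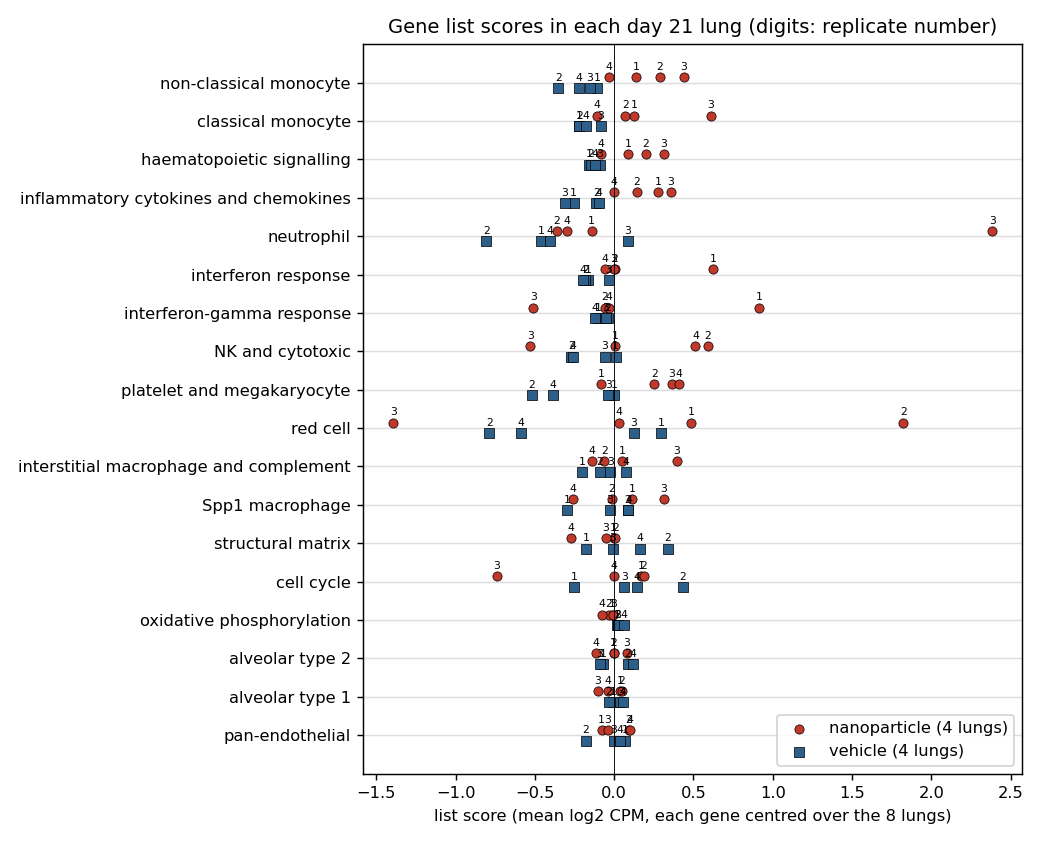
Score of 18 gene lists (x axis, mean log2 CPM of the members after each gene was centred over the 8 lungs) in each lung, with circles for nanoparticle and squares for vehicle libraries and digits for the replicate number. The haematopoietic signalling, non-classical monocyte and inflammatory cytokine scores of all 4 nanoparticle lungs lie above those of all 4 vehicle lungs; the neutrophil, red cell and interferon-gamma scores spread widely between single nanoparticle lungs.

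Upstream sequences of 4 of these and the following genes are printed because they carry motifs named for factors of blood cells and of interferon signalling. Each run holds the 250 bases before the RefSeq start site (GRCm38.p6), 5′ to 3′ on the gene's strand. Capitals mark GAGGAAGT, the core of a PU.1-type ETS site, and the core of the interferon-stimulated response element (ISRE: GAAA, any 2 bases, GAAA), on either strand; neighbouring matches may overlap.
Samsn1, chr16:75909267-75909516, minus strand: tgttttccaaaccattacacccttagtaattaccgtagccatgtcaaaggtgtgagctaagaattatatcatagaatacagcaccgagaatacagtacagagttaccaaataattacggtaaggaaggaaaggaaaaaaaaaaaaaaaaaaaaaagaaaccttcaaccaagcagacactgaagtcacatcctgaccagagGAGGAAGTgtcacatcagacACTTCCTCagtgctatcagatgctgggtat
Fcgr4, chr1:171018676-171018925, plus strand: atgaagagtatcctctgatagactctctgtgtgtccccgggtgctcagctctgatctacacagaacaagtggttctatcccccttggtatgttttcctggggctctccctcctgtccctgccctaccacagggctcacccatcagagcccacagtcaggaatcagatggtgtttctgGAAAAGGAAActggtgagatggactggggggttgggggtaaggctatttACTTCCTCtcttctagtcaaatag
Oas3, chr5:120777660-120777909, minus strand: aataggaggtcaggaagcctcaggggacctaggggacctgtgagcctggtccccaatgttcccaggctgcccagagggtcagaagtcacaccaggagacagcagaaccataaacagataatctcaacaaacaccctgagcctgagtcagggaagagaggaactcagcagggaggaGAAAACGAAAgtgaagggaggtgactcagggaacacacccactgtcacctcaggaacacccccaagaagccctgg
Isg15, chr4:156200819-156201068, minus strand: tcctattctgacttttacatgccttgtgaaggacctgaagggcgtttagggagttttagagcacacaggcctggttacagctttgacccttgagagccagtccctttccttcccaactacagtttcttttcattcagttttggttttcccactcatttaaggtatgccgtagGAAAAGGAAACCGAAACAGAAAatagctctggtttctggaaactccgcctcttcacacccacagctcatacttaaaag

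Samsn1 held GAGGAAGT in both orientations, the first 50 to 43 bases and the second 30 to 23 bases before the start site, which lies inside the longer GENCODE gene model. Isg15 held 3 overlapping matches to the ISRE core between 78 and 57 bases before its start, and Oas3 held 1 at 75 to 66 bases. Fcgr4, an activating Fc receptor of monocytes and macrophages, held 1 match to each motif. It read 13.6, 11.7, 21.9 and 8.30 CPM in nanoparticle lungs and 8.85, 8.23, 9.18 and 8.42 CPM in vehicle lungs, with nanoparticle replicate 4 inside the vehicle range (0.67, SE 0.21, edgeR adjusted p 0.944; 0.37 without nanoparticle replicate 3). Of 12637 tested genes with a promoter entry, 3.09% held GAGGAAGT and 3.34% held the ISRE core in this window. Among interferon response genes 10 of the 18 with an entry held the ISRE core (55.6%) and 0 held GAGGAAGT. Of haematopoietic signalling genes with an entry, 2 of 22 held GAGGAAGT (9.09%) and 3 of 22 held the ISRE core (13.6%). Was and Ptprc held neither. A match describes the letters and not a binding site.

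Interferon response genes had higher means in nanoparticle lungs, and nanoparticle replicate 1 was the highest library in most of those described. All 24 members had a higher mean, 10 reached an unadjusted p under 0.05 (beside 2.41%), 2 had no overlap (beside 1.8%) and the median was 0.30. Without nanoparticle replicate 1 the median was 0.11, 20 had a higher mean and 3 reached an unadjusted p under 0.05. In that setting 2.36% of all genes reached that p as higher and 1.94% as lower. Isg15, a ubiquitin-like protein made in response to type I interferon, read 21.1, 11.4, 11.3 and 10.9 CPM in nanoparticle lungs and 11.3, 11.6, 11.6 and 11.6 CPM in vehicle lungs. A single lung was high, and the other 7 lay within 10.9 to 11.6 CPM. Oasl2, an oligoadenylate synthetase-like protein, was also highest in nanoparticle replicate 1, at 105, 58.2, 62.3 and 57.3 CPM against 53.6, 52.7, 57.5 and 50.7 CPM, as did Irf7, the interferon regulatory factor, at 53.9, 31.2, 32.4 and 30.04 CPM against 28.9, 26.3, 31.1 and 26.6 CPM. Ifit1, which binds foreign RNA, read 41.8, 27.3, 28.5 and 27.2 CPM against 21.9, 22.6, 27.3 and 24.6 CPM. Oas3, which makes the activator of RNase L, differed from these: it was high in nanoparticle replicates 1 and 3 (14.0 and 14.5 CPM) and read 7.69 and 5.73 CPM in replicates 2 and 4, against 5.29, 4.28, 6.05 and 5.08 CPM (1.02, SE 0.25, edgeR adjusted p 0.867). Cxcl10, a chemokine induced by interferon, read 5.27, 3.41, 3.09 and 2.90 CPM against 2.19, 3.01, 2.97 and 2.71 CPM.

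The interferon-gamma list split single nanoparticle lungs further. Gbp4, a guanylate-binding protein, read 238 CPM in nanoparticle replicate 1, 77.6 and 87.7 CPM in replicates 2 and 4 and 24.2 CPM in replicate 3, against 71.7, 84.0, 81.9 and 77.1 CPM in vehicle lungs. Gbp2 had the same order, at 144, 73.5, 59.2 and 85.9 CPM against 71.7, 62.5, 79.0 and 77.7 CPM. Tgtp1, an interferon-induced GTPase, read 44.1, 15.2, 18.2 and 12.9 CPM against 14.2, 17.6, 14.1 and 14.6 CPM. Of the 20 members, 19 had a higher mean but 0 reached an unadjusted p under 0.05 (beside 2.41% of all genes as higher). The median of 0.31 became −0.09 without nanoparticle replicate 1. Guanylate-binding proteins and Tgtp1 belong to families of close copies, which makes their split of reads uncertain.

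Neutrophil genes rested on 1 lung. Of 21 listed, 20 were tested; 19 had a higher mean in nanoparticle lungs, 8 reached an unadjusted p under 0.05 (all higher, beside 2.41% of all genes) and 0 had groups without overlap (beside 1.8%). S100a8, a chain of calprotectin, read 19.9, 18.0, 322 and 19.3 CPM in nanoparticle lungs and 19.1, 12.2, 29.97 and 15.6 CPM in vehicle lungs. Its partner S100a9 read 31.7, 30.3, 411 and 29.9 CPM against 27.4, 17.6, 43.6 and 22.04 CPM. Retnlg, a resistin-like protein of neutrophils, read 9.02, 6.77, 127 and 3.99 CPM against 5.67, 2.74, 7.53 and 4.44 CPM. The granule genes Mmp8 (87.6 CPM) and Ngp (88.7 CPM), the chemokine receptor Cxcr2 (63.8 CPM) and the surface marker Ly6g (11.5 CPM) were also highest in nanoparticle replicate 3, while the other 7 lungs read 4.65 to 9.29, 6.63 to 20.9, 5.15 to 13.4 and 0.151 to 0.616 CPM. The list's median log2 fold change of 1.29 was 0.07 without this library, when S100a8 stood at −0.01 and 11 members had a higher mean. In that setting 0 members reached an unadjusted p under 0.05 as higher, beside 2.42% of all genes. The same lung was highest for the acute-phase gene Saa3 (45.6 CPM beside 2.29 to 7.09 CPM), the chitinase-like gene Chil3 (1618 CPM beside 350.5 to 540.4 CPM) and the scavenger receptor Marco (11.7 CPM beside 2.50 to 4.82 CPM). It was lowest for Mki67, a marker of dividing cells (22.2 CPM beside 33.3 to 57.7 CPM) and for the class II gene H2-Ab1 (332 CPM beside 451 to 545 CPM).

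**Figure D4:**
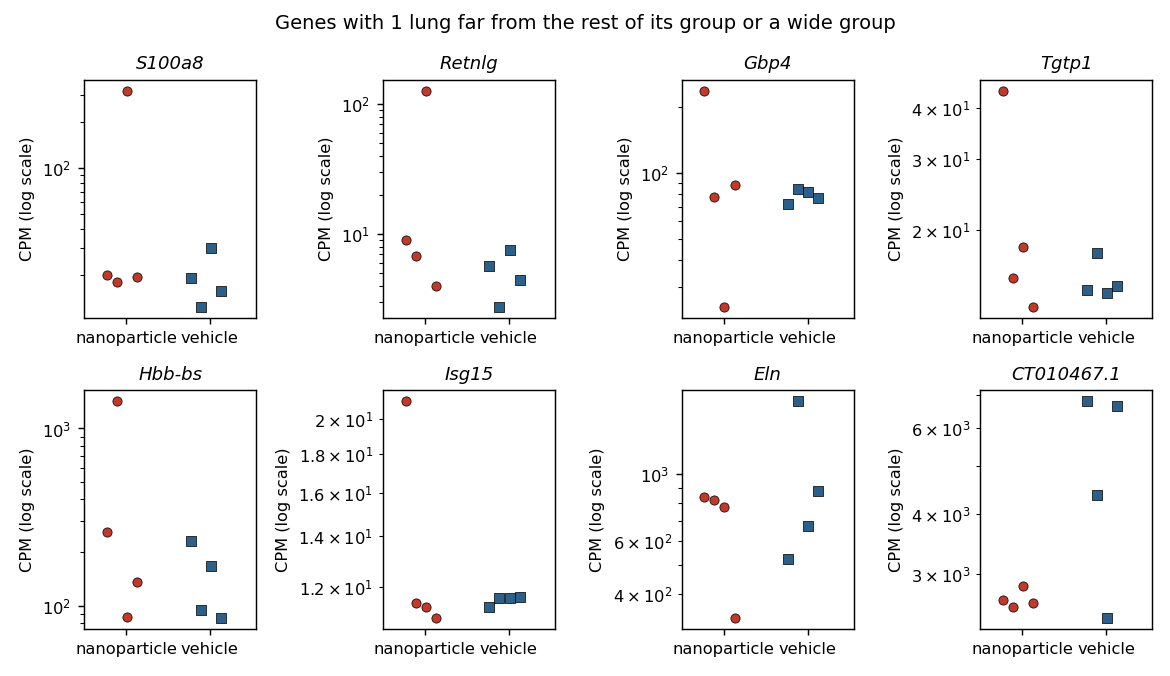
CPM on a log y axis in each of 4 nanoparticle (circles) and 4 vehicle (squares) lungs, in replicate order from left to right, for 8 genes in which the spread within a group was wide. Nanoparticle replicate 3 is the high point for S100a8 (322 CPM) and Retnlg (127 CPM), replicate 1 for Gbp4 (238 CPM) and replicate 2 for Hbb-bs (1424 CPM).

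Several inflammatory cytokines and chemokines read under 2 CPM, where 3 counts equal 0.0829 to 0.124 CPM in the day 21 libraries, a limit that covers counting error only. Of 25 tested, 21 had a higher mean in nanoparticle lungs, 7 reached an unadjusted p under 0.05 (beside 2.41%) and 4 had no overlap (beside 1.8%). The median was 0.39, or 0.26 without nanoparticle replicate 3, 0.21 on the log2(TPM + 1) scale and 0.17 on the log2(FPKM + 1) scale. Cxcl2, which attracts neutrophils, read 1.31, 0.706, 1.29 and 0.797 CPM against 0.493, 0.362, 0.0825 and 0.395 CPM. The chemokine genes Ccl3 and Ccl4 read 1.37 to 2.34 CPM against 0.811 to 1.29 CPM and 0.820 to 1.04 CPM against 0.512 to 0.599 CPM. Ccl2, the ligand of CCR2, read 1.72, 1.37, 1.80 and 1.304 CPM against 0.670, 1.296, 1.04 and 1.28 CPM. Il1rn, which encodes the natural antagonist of interleukin 1, read 17.6, 16.3, 22.2 and 12.1 CPM against 10.2, 13.5, 12.3 and 13.2 CPM. Acod1, the enzyme that makes itaconate in activated macrophages, had 23, 20, 49 and 12 counts in nanoparticle lungs and 1, 7, 5 and 7 in vehicle lungs. Its log2 fold change of 2.67 (95% interval 1.55 to 3.78) therefore came from few reads. By contrast Tnf overlapped (1.38, 1.25, 2.696 and 1.34 CPM against 1.16, 1.72, 2.53 and 1.64 CPM), with a log2 fold change of −0.09 (SE 0.28), and so did Il1b at 11.8, 8.97, 25.8 and 6.20 CPM against 8.74, 4.76, 10.1 and 4.10 CPM (0.93, or 0.38 without nanoparticle replicate 3). Tnfaip3, a brake on NF-kappaB signalling, read 38.5, 43.6, 39.7 and 39.5 CPM against 36.5, 34.8, 33.7 and 30.9 CPM without overlap.

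Genes of natural killer cells, platelets and red cells travel with blood. All 18 genes of the natural killer and cytotoxic list had a higher mean in nanoparticle lungs (median 0.35). The list is not confined to natural killer cells, and its member Cma1 was also listed among mast cell genes. In it 1 gene reached an unadjusted p under 0.05 (beside 2.41% of all genes), Gzmb, the protease granzyme B, at 5.13, 6.90, 4.18 and 5.40 CPM against 3.84, 3.44, 4.07 and 3.68 CPM. Il2rb, the shared receptor chain for interleukins 2 and 15, was high in nanoparticle replicates 2 and 4 (30.1 and 26.6 CPM) and read 18.9 and 14.0 CPM in replicates 1 and 3, against 14.0 to 20.8 CPM in vehicle lungs. Without nanoparticle replicate 3 the natural killer and cytotoxic median was 0.54 and 8 members reached an unadjusted p under 0.05, beside 2.42% of all genes in that setting. Of 16 platelet and megakaryocyte genes 15 had a higher mean, 8 reached an unadjusted p under 0.05 (beside 2.41%) and 2 had no overlap (beside 1.8%). Their median was 0.54, or 0.32 on the log2(TPM + 1) scale and 0.28 on the log2(FPKM + 1) scale. Ppbp, a platelet chemokine, read 9.64, 14.4, 18.5 and 14.6 CPM against 8.32, 4.07, 10.3 and 6.29 CPM. Itga2b, the platelet integrin alpha chain, read 8.23, 11.1, 9.96 and 13.2 CPM against 8.78, 5.76, 8.91 and 6.08 CPM. Pf4, platelet factor 4, overlapped (5.39 to 8.04 CPM against 4.79 to 5.85 CPM). Red cell genes were set by nanoparticle replicate 2: Hbb-bs, an adult beta globin, read 261, 1424, 86.3 and 136 CPM against 232, 94.0, 166 and 85.1 CPM, and Alas2, the haem synthesis enzyme of red cells, 8.16, 46.3, 2.62 and 4.78 CPM against 6.77, 2.89, 5.11 and 2.40 CPM. The summed CPM of the 11 red cell genes tested ran from 210 to 3344 in nanoparticle lungs and from 236 to 581 in vehicle lungs, and their median log2 fold change of 1.42 was 0.12 without replicate 2. Nanoparticle replicate 3, highest for monocyte, signalling and neutrophil genes, had the lowest red cell score of the 8 lungs (−1.39), and replicate 2 the highest (1.82). The part of blood content in the monocyte, signalling and platelet values was not tested.

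Scar genes did not separate the groups. The 26 structural matrix genes had a median log2 fold change of −0.16, 25 had a lower mean in nanoparticle lungs, 1 reached an unadjusted p under 0.05 as lower (beside 1.85%) and 0 had groups without overlap (beside 1.75%). Col1a1, a chain of type I collagen, read 499.8, 499, 466 and 367 CPM in nanoparticle lungs and 444, 676, 474 and 520.1 CPM in vehicle lungs. The ranges overlapped, with vehicle replicate 2 highest and nanoparticle replicate 4 lowest, and the log2 fold change was −0.21 with a 95% interval of −0.52 to 0.10. Col1a2, its partner chain, read 724, 729.8, 629 and 603 CPM against 674, 939.8, 734 and 794 CPM, and Col3a1, type III collagen, 1199.9, 1262, 816 and 955 CPM against 1057, 1583, 1159 and 1359 CPM. Eln, which encodes elastin, had the widest range, at 838, 824, 777 and 333 CPM against 523, 1748, 673 and 879 CPM. Lum, the proteoglycan lumican, was the member at an unadjusted p under 0.05, at 15.5, 10.4, 11.9 and 13.9 CPM against 13.1, 18.7, 16.8 and 16.8 CPM (−0.34, SE 0.12, edgeR adjusted p 0.999). Without vehicle replicate 2 the structural matrix median was −0.07 and 4 members had a higher mean. Without vehicle replicate 1 it was −0.22, with 8 members at an unadjusted p under 0.05 as lower (beside 1.69% of all genes in that setting). In that setting 6 had no overlap, but groups with a library removed part more easily, so the 6 cannot be set beside 1.75%. Against day 14 the same list's median was −0.54 in vehicle lungs, with 17 of 26 members called (all lower, beside 10.3% of all genes), and −0.71 in nanoparticle lungs, with 22 of 26 called (all lower, beside 14.7%).

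Most of the other genes of fibrosis described here gave intervals that held 0. Fn1, fibronectin, had a log2 fold change of −0.04 (95% interval −0.41 to 0.33) and Acta2, the smooth muscle actin of myofibroblasts, −0.11 (−0.38 to 0.17). Postn, the matricellular protein periostin, differed by −0.04 (−0.22 to 0.14), and Cthrc1, a marker of scar fibroblasts, by −0.26 (−0.71 to 0.18). Timp1, an inhibitor of matrix proteases, stood at 0.27 (−0.21 to 0.76), and Spp1, osteopontin of scar-associated macrophages, at −0.21 (−0.72 to 0.30). Tgfb1, the cytokine that drives collagen synthesis, read 83.4, 95.004, 86.3 and 82.5 CPM against 78.9, 79.0, 78.4 and 82.5 CPM, where the lowest nanoparticle lung and the highest vehicle lung were equal to 3 digits (0.12, unadjusted p 0.0526). P3h3, a collagen prolyl hydroxylase, read 41.9, 42.4, 35.9 and 42.9 CPM against 42.5, 46.7, 45.4 and 50.5 CPM, and its interval left out 0 (−0.18, 95% interval −0.35 to −0.012, edgeR adjusted p 0.999). None of these genes was called, and the intervals of Postn, Acta2 and Fn1 leave out a 1.5-fold difference in either direction.

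**Figure D5:**
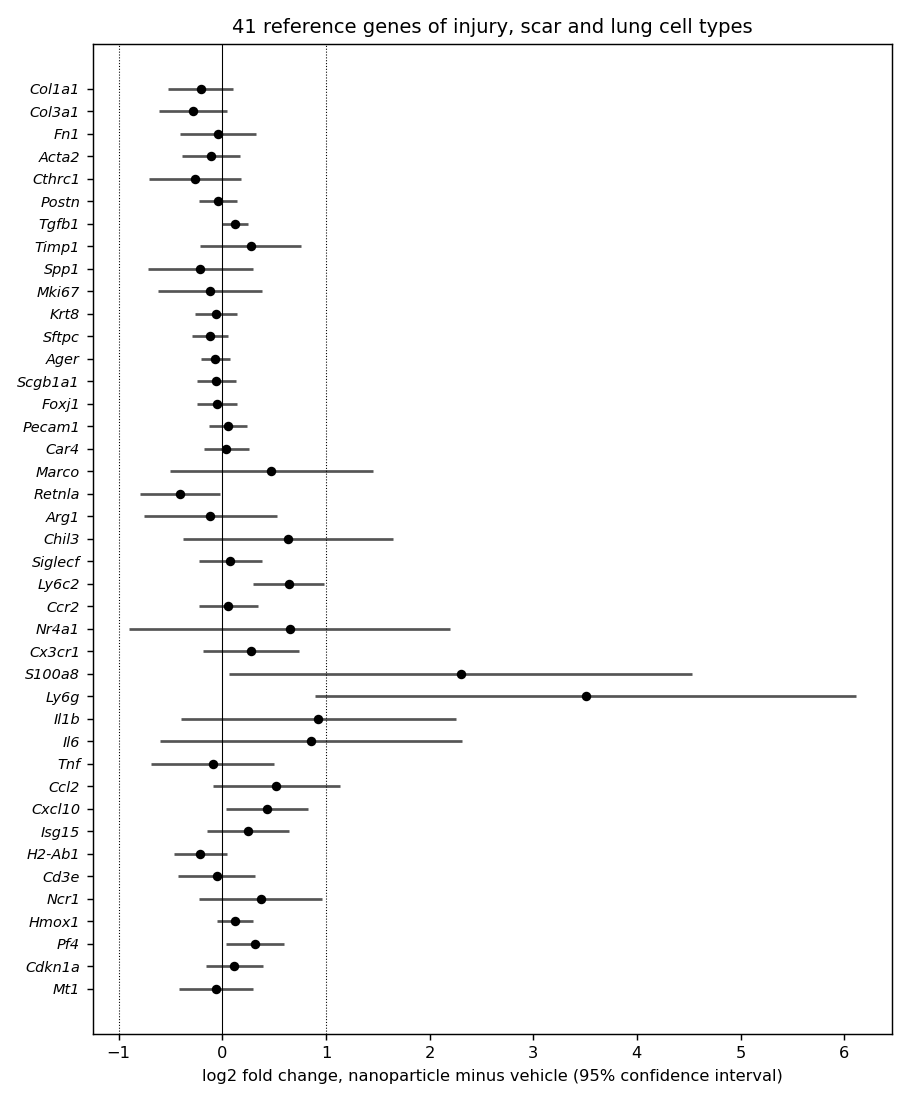
Log2 fold change between nanoparticle and vehicle lungs (x axis; points, with lines for the 95% confidence interval) of 41 reference genes of injury, scar and lung cell types, and dotted lines at a 2-fold difference. The interval lies within 2-fold for 33 genes and leaves out 0 for 6: Retnla, Ly6c2, S100a8, Ly6g, Cxcl10 and Pf4. No reference gene was called, and 4.25% of all genes reached an unadjusted edgeR p under 0.05. S100a8 and Ly6g were high in nanoparticle replicate 3 alone, and without it S100a8 stood at −0.01.

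Alveolar epithelium and endothelium were close to equal, and airway secretory genes had slightly lower means in nanoparticle lungs. Surfactant gene Sftpc differed by −0.12 (95% interval −0.29 to 0.05), Ager by −0.07 (−0.20 to 0.07), the club cell gene Scgb1a1 by −0.06 (−0.25 to 0.13) and the ciliated cell regulator Foxj1 by −0.05 (−0.25 to 0.15). Krt8, the keratin of injured and transitional alveolar cells, read 166 to 218 CPM against 178 to 221 CPM. Pecam1, the endothelial adhesion molecule CD31, differed by 0.05 (−0.13 to 0.24), and Car4, a carbonic anhydrase of capillary cells, by 0.04 (−0.18 to 0.26). The medians of the alveolar type 2, alveolar type 1, pan-endothelial and lung capillary lists were −0.04, −0.03, 0.05 and 0.06. Of their members 0 reached an unadjusted p under 0.05, beside 4.25% of all genes in either direction. In lists of 16 to 18 genes, 0 is too near that share to be read as a result. The 14 airway club and goblet cell genes had a median of −0.13, 13 had a lower mean and 1 reached an unadjusted p under 0.05 as lower (beside 1.85%). That member was Muc5b, an airway mucin, at 45.3, 57.2, 46.8 and 63.8 CPM against 67.7, 72.4, 66.5 and 59.6 CPM (−0.32, 95% interval −0.63 to −0.010, edgeR adjusted p 0.999). Of 27 cell cycle genes 25 had a lower mean and the median was −0.17, but it was 0.02 without nanoparticle replicate 3. Tk1, thymidine kinase, was the 1 member at an unadjusted p under 0.05 (6.76 to 8.99 CPM against 8.27 to 12.99 CPM), beside 1.85% of all genes as lower.

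Genes with a lower mean in nanoparticle lungs were led by 2 receptors of immune cells. Mgl2, a galactose-binding lectin of dendritic cells and macrophages, read 24.2, 23.8, 19.6 and 21.99 CPM in nanoparticle lungs and 31.4, 30.3, 27.4 and 33.7 CPM in vehicle lungs. The groups did not overlap, and the day 14 mean was 34.2 ± 3.70 CPM (SD, n = 4); the log2 fold change against vehicle was −0.45 (SE 0.09, unadjusted p 0.000195, edgeR adjusted p 0.451). Il1rl1, the receptor for interleukin 33, read 8.47, 8.81, 7.81 and 7.57 CPM against 11.8, 10.999, 10.3 and 10.6 CPM, −0.42 on the log2 scale (SE 0.09). Retnla, a secreted protein of macrophages in type 2 responses, overlapped at 48.2, 43.2, 52.2 and 37.3 CPM against 46.0, 76.1, 54.1 and 64.0 CPM (−0.41, SE 0.18), far below its day 14 mean of 217 CPM in both groups. Arg1 and Chil3, also genes of alternative activation, gave −0.12 (95% interval −0.76 to 0.52) and 0.63 (−0.37 to 1.64). Without nanoparticle replicate 3 the log2 fold change of Chil3 was −0.13. Of the 15 genes tested in the type 2 and alternative activation list, 7 had a higher and 8 a lower mean.

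Another 7 of the 10 genes of smallest p with a lower mean, chosen with the same floor, came from several functions. Dmpk, a protein kinase of muscle, differed by −0.29, the centriole protein gene Ppp1r35 by −0.33 and the RNA-binding protein gene Hnrnpa0 by −0.21. Nek2, a mitotic kinase, differed by −0.36, Csad, an enzyme of taurine synthesis, by −0.16 and the protocadherin Pcdhb9 by −0.30. Hnrnpa0 had a narrow spread, at 139, 141, 136 and 139 CPM against 168, 158, 162 and 155 CPM. CT010467.1, annotated as a ribosomal RNA at 39846353 to 39848827 on chromosome 17, read 2664, 2574, 2843 and 2617 CPM in nanoparticle lungs and 6806, 4363, 2440.0 and 6655 CPM in vehicle lungs. Vehicle replicate 3 lay below every nanoparticle lung and the other vehicle lungs far above. The libraries were made from polyA RNA, and the part of this entry in other values was not tested. Oxidative phosphorylation genes were slightly lower as means in 24 of 28 cases, with a median of −0.06, 3 at an unadjusted p under 0.05 (beside 1.85%) and 6 without overlap (beside 1.75%). Ndufa1, a subunit of complex I, read 21.7, 19.1, 20.1 and 18.2 CPM against 23.5, 21.998, 23.6 and 23.0 CPM, and Cox4i1, a subunit of complex IV, 176, 161, 178 and 168 CPM against 189, 189, 193 and 193 CPM.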

How the data were processed

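Whole-lung polyA RNA from 12 mice was sequenced as 151 bp read pairs on a NovaSeq 6000, per the labels' protocols. Named in the submitters' processing notes are STAR 2.7.8a, RSEM 1.3.3, cutadapt 4.8, MultiQC 1.20, FastQC 0.11.8 and the build GRCm38. Annotation release and strand setting are not given in the sources used here. Expected counts, as deposited, are the authors' RSEM estimates per gene and were whole numbers in the files. The authors also deposited TPM and FPKM values, scaled for gene length and library, which served here as alternatives on a log2 scale.

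Genes passing filterByExpr (minimum count 10, minimum total 15) were scaled by TMM and fitted over all 12 libraries with edgeR 4.0.16 (R 4.3.3, robust quasi-likelihood F-test, two-sided contrast of nanoparticle against vehicle), with Benjamini-Hochberg adjustment over 17909 genes and a threshold of 0.05. CPM values use the TMM-scaled library sizes. Alternatives used DESeq2 1.42.0, limma 3.58.1, other scalings and filters, thinned counts, a replicate block and each library left out. The fit was also run on 3 simulated data sets. Their counts were drawn with the fit's own estimated spread and held no outlying lung, so they do not show how such a lung acts on it. Nothing in the labels says more of the replicates than that they are separate mice. The p-values set the group difference against the spread between mice within groups. That spread was estimated over all 12 libraries, day 14 included, with information shared between genes.

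Genes were named by this rule: the 10 smallest p in each direction with average log2 CPM of at least 1, the smallest-p and the most abundant member of each of 53 gene lists, and 41 reference genes; some genes the rule takes in are not reported here. Further genes were chosen after their values were seen, namely Acod1, Adgre4, Spn, Cd300ld, Lcp2, Fgr, Btk, Syk, Lyn, Ifit1, Oasl2, Irf7, Gbp4, Gbp2, S100a9, Mmp8, Retnlg, Ngp, Cxcr2, Ccl3, Ccl4, Il1rn, Ppbp, Itga2b, Alas2, Col1a2, Eln, Cox4i1, Saa3 and Ccl21d. The comparison and the gene lists were chosen with earlier results of these data known, so counts within lists are descriptions and not independent evidence. Promoters came from RefSeq (GRCm38.p6); 87 of 110 genes looked up had an entry.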

Additional observations from a re-analysis of the deposited data

Results flagged for a closer look

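A library was picked out where its log2 value, or list score, lay so far from the other 3 of its group that the gap, as a share of the group's range, exceeded Dixon's 95% critical value. This held in 31 of 326 groups (9.51%). For a single group chance gives about 1 in 20, but some genes checked were chosen after their values were seen. The lists also share genes, so no excess over chance can be read from this share.

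Nanoparticle replicate 3 was the high library for S100a8 (gap 0.964), S100a9 (0.978), Mmp8 (0.923), Cxcr2 (0.875), Ly6g (0.866), Tnf (0.872), F10 (0.886), Cthrc1 (0.913) and Ppp1r35 (0.84). It was also the high library for the neutrophil (0.92), NRF2 oxidative stress (0.925), glycolysis (0.861) and unfolded protein response (0.844) scores. It was the low library for Mki67 (0.862) and P3h3 (0.871).

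Nanoparticle replicate 1 was the high library for Isg15 (0.93), Ifit1 (0.894), Oasl2 (0.86), Irf7 (0.869) and the interferon response score (0.906). Nanoparticle replicate 4 was low for Eln (0.919).

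Among vehicle lungs, replicate 2 was low for Foxj1 (0.895), Lyn (0.954), Ngp (0.898) and the ciliated airway (0.9) and lung capillary (0.9) scores, and high for Dmpk (0.841). Vehicle replicate 4 was high for Tgfb1 (0.87) and the oxidative phosphorylation score (0.854). Vehicle replicate 1 was high for Nr4a1 (0.843) and low for Isg15 (0.963), although all 4 vehicle lungs read 11.3 to 11.6 CPM for Isg15.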

How the results depend on the processing

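DESeq2 called 17 genes higher and 2 lower with nanoparticles; the cause of the difference from edgeR's 0 was not tested. The 17 included Samsn1, Itgal, Cd300e, Treml4, Ptprc, Was, S1pr5, Mmp12, Fyb and Ms4a6c, described above as the higher genes of smallest edgeR p. Their DESeq2 adjusted p ran from 0.0046 to 0.0167, beside edgeR adjusted p of 0.451 to 0.557. The 2 lower genes were Mgl2 and Il1rl1 (DESeq2 adjusted p 0.0209 and 0.0495). Another of the 17, Ccl21d, which has near-identical copies, had 512 and 461 counts in nanoparticle replicates 3 and 4 and 0 in the other 6 lungs. Without a low count filter 582 genes reached an unadjusted p under 0.05 as lower. Leaving out each library in turn gave 339 to 585 such genes higher and 225 to 431 lower. Upper quartile scaling gave 1.81% higher and 2.34% lower, beside 2.41% and 1.85%. Deviations from the group means in mice of the same replicate number correlated at 0.11, −0.041, −0.017 and −0.074. Mice of different numbers gave −0.131 to 0.151, and such weak values cannot show whether the mice were paired. With the replicate block 0 genes were called and the smallest edgeR adjusted p was 0.116.

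Near 0, direction turned for Siglecf (−0.0030 with TPM + 1, −0.0063 with TPM + 0.1, −0.0068 with FPKM + 1) and Cd3e (0.043, 0.052 and 0.036, and 0.041 with thinned counts); the cause was not tested. With fewer samples, leaving out each library in turn, log2 fold changes crossed 0 for Arg1 (−0.30 to 0.089), Car4 (−0.044 to 0.11), Ccr2 (−0.010 to 0.13), Cd3e (−0.15 to 0.076), Cdkn1a (−0.0027 to 0.21), Chil3 (−0.13 to 0.86), Cthrc1 (−0.41 to 0.0074), Cxcr2 (−0.097 to 1.86), Eln (−0.67 to 0.0011), Fn1 (−0.16 to 0.084), Foxj1 (−0.13 to 0.0011), Gbp4 (−0.32 to 0.77), Isg15 (−0.044 to 0.35), Marco (−0.33 to 0.70), Mki67 (−0.24 to 0.093), Mt1 (−0.20 to 0.026), Pecam1 (−0.0037 to 0.11), Postn (−0.11 to 0.029), S100a8 (−0.0088 to 2.65), Siglecf (−0.040 to 0.19) and Tnf (−0.42 to 0.13). List medians moved beyond the spread in 7 cases. These included inflammatory cytokines (0.21 with TPM + 1, 0.17 with FPKM + 1) and platelets (0.28 with FPKM + 1). They also included neutrophil genes without nanoparticle replicate 3 and red cell genes without nanoparticle replicate 2, with the medians given above. The interstitial macrophage median was −0.04 without nanoparticle replicate 3, beside 0.15.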
